A study of Mus musculus with 8 samples.

Results

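The 5 genes of a small transcriptional circuit in activated B cells were followed in germinal centre B cells: the EGR transcription factor genes Egr1, Egr2 and Egr3 and the corepressor genes Nab1 and Nab2. The members were given by name, and every probe set whose only gene symbol is one of these names was taken, which gave 9 probe sets for 5 genes, out of 34945 probe sets with 1 symbol for 18193 genes. All 5 genes were bright enough to be tested, as were 10547 genes in all. The samples were B cells of C57BL/6 mice taken from lymph nodes 12 days after the animals received NP-KLH, a hapten on a carrier protein, with alum under the skin. All carried the germinal centre gate B220+CD38-CD95+ and were then split by CXCR4 and CD83 into the 4 samples titled light zone and the 4 titled dark zone, each measured on 1 Affymetrix array. The light zone is where B cells meet antigen and helper T cells, and the dark zone is where they divide and mutate their antibody genes. The labels call the samples biological replicates and do not say whether each came from 1 mouse or from a pool.

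EGR proteins are zinc finger factors made within minutes of antigen receptor or growth factor signalling, through the MAP kinase pathway and serum response factor, and they bind GC-rich sites in DNA. NAB1 and NAB2 have no DNA-binding domain of their own. They dock on EGR1, EGR2 and EGR3 and mostly repress the genes these factors bind, in part through the NuRD chromatin complex, and NAB genes are themselves EGR targets, which closes a feedback loop. In lymphocytes EGR2 and EGR3 are known for limiting activation after antigen receptor signalling.

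Promoters of 3 of the 5 genes were found in the RefSeq promoter table (GRCm38.p6, from 250 bases before to 50 bases after a transcription start): Egr2 with 5 windows, and Nab1 and Nab2 with 1 each. They are shown because the loop above runs through them. Capitals mark matches on either strand to the EGR site, searched as GCGNGGGCG (which takes in GCGTGGGCG) and as its 8 letters GCGTGGGC, or to the CArG box, the site of serum response factor.
Egr2, chr10:67537619-67537918, plus strand: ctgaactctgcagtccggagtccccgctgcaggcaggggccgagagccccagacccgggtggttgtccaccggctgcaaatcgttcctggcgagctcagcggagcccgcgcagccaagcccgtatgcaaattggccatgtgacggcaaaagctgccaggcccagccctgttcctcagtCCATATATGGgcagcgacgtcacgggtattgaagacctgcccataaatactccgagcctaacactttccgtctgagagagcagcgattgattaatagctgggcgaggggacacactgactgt
Nab1, chr1:52500399-52500698, minus strand: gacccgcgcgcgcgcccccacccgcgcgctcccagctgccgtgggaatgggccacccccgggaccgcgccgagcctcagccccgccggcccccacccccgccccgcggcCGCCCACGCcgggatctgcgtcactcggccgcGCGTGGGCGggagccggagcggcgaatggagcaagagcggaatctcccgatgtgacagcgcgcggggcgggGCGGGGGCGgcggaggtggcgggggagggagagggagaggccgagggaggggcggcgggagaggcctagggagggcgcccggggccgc
Nab2, chr10:127666654-127666953, minus strand: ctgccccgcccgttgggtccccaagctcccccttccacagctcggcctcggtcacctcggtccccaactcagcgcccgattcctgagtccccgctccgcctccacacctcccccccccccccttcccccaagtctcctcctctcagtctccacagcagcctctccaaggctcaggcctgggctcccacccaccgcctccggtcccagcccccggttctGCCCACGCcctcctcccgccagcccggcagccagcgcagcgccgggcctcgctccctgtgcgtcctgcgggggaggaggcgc

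The Nab1 window held GCGTGGGCG at 2 places, once on each strand, and another match to GCGNGGGCG, these letters being found in 0.612% and 5.55% of all 32851 windows of this length. The Nab2 window held neither, but it held GCGTGGGC once, as did 1.63% of windows (this shorter form was added after the sequences were read). A CArG box was present in 4 of the 5 Egr2 windows, 3 of which overlap and share 1 box, against 1.63% of all windows. None of the members' windows held the cyclic AMP element TGACGTCA, which 1.79% of windows contain. The Nab1 and Nab2 windows were 81.7% and 74% G and C, against a median of 52.7%, and GC-rich letters are met more often in such sequence. A match says only that the letters are there.

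B and germinal centre genes were bright in both zones. The B cell genes Ms4a1 and Cd79b had mean intensities (geometric means of the RMA values, an arbitrary linear scale) of 10430 and 5150 in light zone arrays and 10050 and 5102 in dark zone arrays, and neither passed the test, although a dimmer Ms4a1 probe set was higher in the light zone (-0.35 on the log2 scale, dark minus light). Bcl6, the master regulator of the germinal centre, was at 3111 and 3434 and did not pass, and its dimmer probe set was higher in the dark zone (0.65). Of 10 such genes tested, Gcsam (1.48), Mybl1 (0.76) and S1pr2 (0.26) were higher in the dark zone (30%, against 19.1% of all genes tested). Fas (-0.23) was higher in the light zone (10%, against 24.8%), and 6 did not pass. The summed intensity of the 10 genes was lower in light zone arrays (23930 to 25270) than in dark zone arrays (26920 to 27970), without overlap. This sum takes in Gcsam (886.1 in light and 2471 in dark zone arrays) and Mybl1 (1763 and 2986), which differ by zone. It therefore does not measure the share of B cells in a sample. Cd79a, another B cell gene, was at 367.4 and 352.2 and did not pass. In the labels the light zone gate is CXCR4hi/CD83lo, which reverses the usual definition, whereas Cd83 mRNA was higher in the arrays titled light zone (7381 against 1478) and Cxcr4 mRNA in those titled dark zone (1571 against 803.9). Groups follow the titles, so each direction is between titles. Array medians lay between 27.3 and 28.1, arrays of 1 title correlated at 0.995 to 0.997, and none stood apart.

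All 5 genes were higher in the light zone. In the fit across all genes (limma, Benjamini-Hochberg adjusted p under 0.05), 24.8% of genes tested were called in that direction and 19.1% in the other. The EGR factors changed by 3.88-fold to 25.5-fold and the NAB corepressors by 1.46-fold to 1.71-fold. Of the 3 EGR genes and 2 NAB genes, all EGR genes and no NAB gene exceeded 2-fold, and 1.96% of genes tested were called higher in the light zone by at least that size. A lower value on these arrays can come from fewer positive cells or from less mRNA in each cell, and these cannot be told apart.

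**Figure D1:**
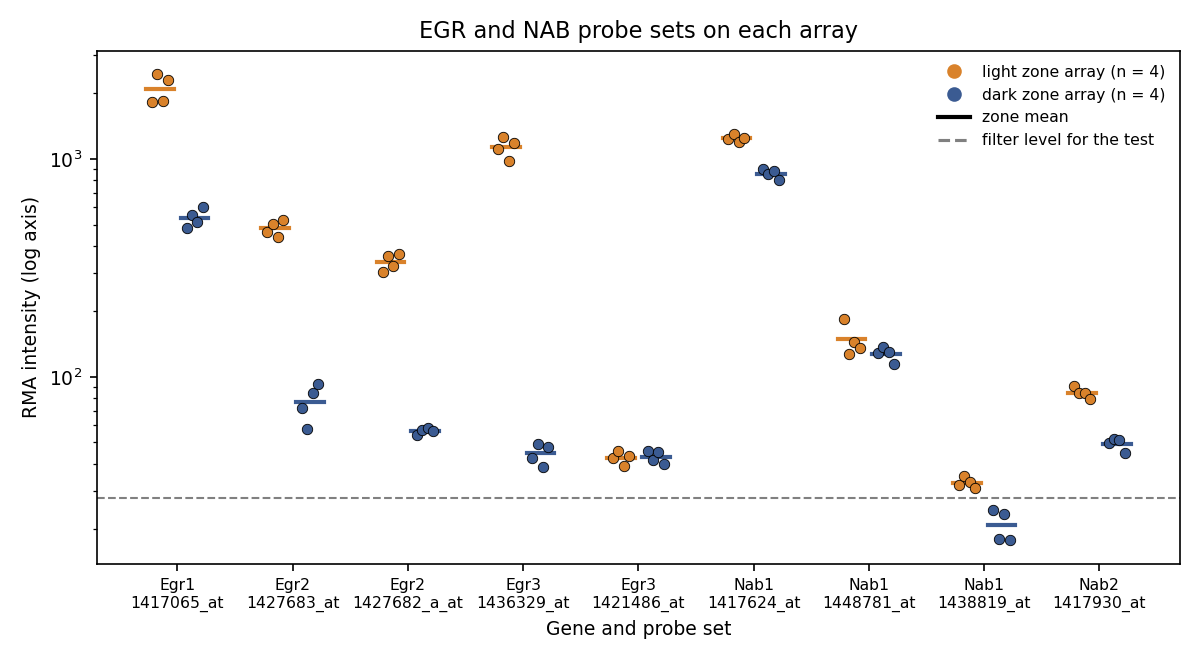
RMA intensity on a log axis for the 9 probe sets of the 5 genes, 1 point per array, with a bar at each zone mean and a dashed line at the intensity of 27.8 that a gene had to reach to be tested. Light zone points lie above dark zone points without overlap in 7 probe sets, and the zones overlap in the dimmer Egr3 probe set and in 1 dimmer Nab1 probe set.

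Egr3 gave the widest separation of any gene tested. Its brighter probe set, 1436329_at, read 1115.7, 1261.9, 978.2 and 1188.2 in light zone replicates 1 to 4 and 42.4, 49.4, 38.6 and 47.9 in dark zone replicates 1 to 4. Every light zone array was far above every dark zone array. The zone means were 1136 ± 121 (SD, n = 4) and 44.6 ± 4.97 (SD, n = 4), so the dark zone kept 3.92% of the light zone level. On the log2 scale the dark minus light difference was -4.67 (standard error, SE, 0.10, 95% interval -4.88 to -4.46), with a limma adjusted p of 6.23e-11, and it ranked 1 of 10547. The dark zone values lie near the dim end of the arrays, where RMA compresses differences, so the fold may be understated.

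The second Egr3 probe set, 1421486_at, did not separate the zones. It read 42.4, 45.5, 39.0 and 43.2 in the light zone and 45.6, 41.6, 45.0 and 39.8 in the dark zone. The zones overlapped throughout, with a difference of 0.01 (SE 0.07, limma adjusted p = 0.92 over all probe sets). The platform annotation ties this probe set to a RefSeq transcript of the gene and lists no transcript for the brighter one. Both carry the symbol Egr3 alone. With both averaged, the Egr3 difference was -2.33 (limma adjusted p = 2e-09). The size of the Egr3 change therefore rests on which probe set reports the transcript, and where each binds was not analysed here.

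Egr2 was measured by 2 probe sets with like results. Probe set 1427683_at read 464.0, 502.6, 437.6 and 524.2 in the light zone and 72.1, 57.7, 84.7 and 93.2 in the dark zone. The zones were well apart, and the dark zone arrays scattered more on the log2 scale (SD 0.302) than the light zone arrays (SD 0.117), with dark zone replicate 2 lowest. The difference was -2.67 (SE 0.13, 95% interval -2.94 to -2.39, limma adjusted p = 1.65e-08), a 6.35-fold change that ranked 7 of 10547.

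The other Egr2 probe set, 1427682_a_at, read 302.3, 356.7, 321.1 and 365.3 in the light zone and 54.2, 57.1, 58.3 and 56.6 in the dark zone. Here the dark zone arrays were close to each other, and replicate 2 was not low. Its difference was -2.57 (SE 0.07), so the scatter of the dark zone arrays seen with the first probe set was not shared by the second. Both probe sets are annotated from the same sequence record.

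Egr1, the best known immediate early member, remained well expressed in the dark zone. Its 1 probe set read 1815.4, 2450.2, 1844.7 and 2291.2 in the light zone and 480.0, 555.5, 514.3 and 603.6 in the dark zone. The highest dark zone array stayed below the lowest light zone array by a wide margin. The zone means were 2100.4 ± 319 (SD, n = 4) and 538.4 ± 53.4 (SD, n = 4), and the dark zone kept 25.8% of the light zone level. The difference was -1.96 (SE 0.11, 95% interval -2.19 to -1.72, limma adjusted p = 4.51e-08), which ranked 32 of 10547.

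Nab2, the corepressor that is itself induced by activation, was dim in both zones and higher in the light zone. Its 1 probe set read 90.9, 84.2, 84.4 and 79.3 in the light zone and 49.8, 51.7, 51.5 and 44.7 in the dark zone. The zones did not overlap, as was the case in the same direction for 23.2% of genes tested. The zone means were 84.7 ± 4.75 (SD, n = 4) and 49.4 ± 3.26 (SD, n = 4). The difference was -0.78 (SE 0.07, 95% interval -0.93 to -0.63, limma adjusted p = 2.54e-06), a 1.71-fold change that ranked 362.

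Nab1, usually described as the more constantly expressed corepressor, changed least. Its brightest probe set, 1417624_at, read 1239.6, 1297.0, 1199.0 and 1251.2 in the light zone and 901.1, 848.3, 878.0 and 799.9 in the dark zone. The arrays of a zone were tight, with an SD of 0.0466 and 0.0743 on the log2 scale, and the zones did not overlap. The difference was -0.54 (SE 0.06, 95% interval -0.67 to -0.41, limma adjusted p = 1.8e-05), a 1.46-fold change that ranked 750. The dark zone kept 68.7% of the light zone level.

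The 2 dimmer Nab1 probe sets gave different sizes. Probe set 1448781_at read 184.9, 127.6, 145.3 and 136.1 in the light zone and 128.7, 137.1, 130.7 and 114.3 in the dark zone. The zones overlapped, with light zone replicate 1 alone above the rest, and the difference of -0.21 (SE 0.10) had an adjusted p of 0.187 in limma. Probe set 1438819_at lay at the edge of the filter, at 30.9 to 35.0 in the light zone and 17.8 to 24.4 in the dark zone, with a difference of -0.66 (SE 0.10, limma adjusted p = 0.000363). Tested probe set by probe set with no filter, 7 of the members' 9 passed, all higher in the light zone, against 12.1% of all probe sets with 1 symbol. The same number, 7 of 9, had every light zone array above every dark zone array, against 12.6% of all such probe sets. These 2 shares include probe sets below the filter, whereas 8 of the members' 9 lay above it. Among the genes tested, which all reached the filter, the shares were 24.8% and 23.2%.

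**Figure D2:**
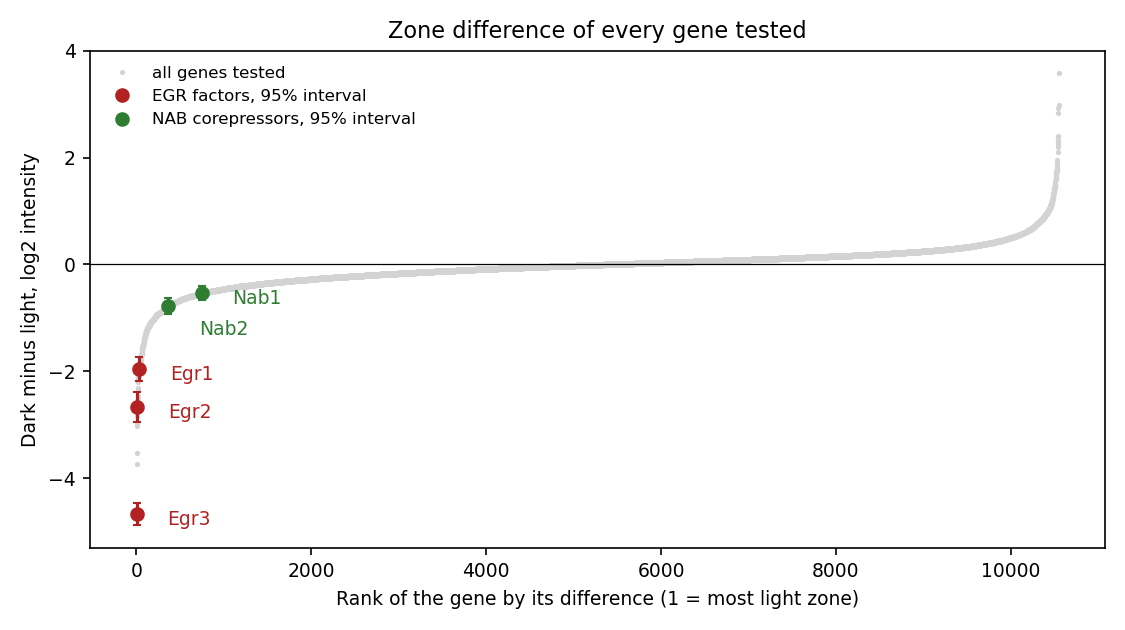
Dark minus light difference in log2 intensity for all 10547 genes tested, ordered by rank, with the EGR factors in red, the NAB corepressors in green and their 95% intervals from limma. Egr3 is the lowest point of all at -4.67, Egr2 and Egr1 follow at -2.67 and -1.96, and Nab2 and Nab1 lie on the shoulder at -0.78 and -0.54.

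The members changed by unequal amounts. For each of the 10 pairs, the log2 ratio of the 2 genes within an array was compared between zones, which cancels any scale of the array. In every pair the 4 light zone ratios did not overlap the 4 dark zone ratios. A two-sided exact permutation test over 70 arrangements gave p = 0.0286 for each pair, raw and adjusted over the 10 pairs. This is the smallest p the design can give. The pairs share genes, so the 10 results are not independent. Among single genes tested, 23.2% had every light zone array above every dark zone array. How often the ratios of other gene pairs separate was not tested, so the count of pairs has no background to be read against. The ratio of Egr3 to Egr1 was lower in the dark zone by 2.72 on the log2 scale, that of Egr3 to Egr2 by 2.00 and that of Egr2 to Egr1 by 0.71. With the probe sets of each gene averaged, the ratio of Egr3 to Egr1 was lower by 0.37. Among the corepressors, Nab2 fell below Nab1 by 0.24, a difference whose adjusted p rose to 0.0571 in the exact test without dark zone replicate 1 or 4.

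The balance of factor to corepressor shifted with zone for each EGR gene. Relative to Nab2, the dark minus light difference was -1.18 for Egr1, -1.89 for Egr2 and -3.89 for Egr3 on the log2 scale. Relative to Nab1 the differences were -1.41, -2.13 and -4.13. The size of the 2 Egr3 values rests on its brighter probe set. With the probe sets of each gene averaged, they were -1.55 relative to Nab2 and -1.86 relative to Nab1. The order of Egr3 and Egr2 depends on the Egr3 probe set: with the probe sets of each gene averaged, Egr2 fell by 0.29 more than Egr3 (exact permutation test, adjusted p = 0.0286).

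Within the light zone, the same arrays were highest for several members. Light zone replicates 2 and 4 were the 2 highest light zone arrays for Egr1, Egr2, Egr3 and Nab1, whereas replicates 1 and 3 were highest for Nab2. Over all genes tested, replicates 2 and 4 were the highest pair in 16.8%, and among 17 other immediate early genes they were in 4: Myc, Cd69, Dusp5 and Nr4a3. The deviations were small beside the zone difference, at most 0.24 on the log2 scale for Egr1 and 0.21 for Egr3. In the dark zone replicates 2 and 4 were the highest pair for Egr1 and Egr3, as they were for 12.7% of genes tested, and replicates 3 and 4 for the brighter Egr2 probe set, for which replicate 2 was lowest. Dark zone replicate 4 was the lowest dark zone array for Nab1 and Nab2.

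**Figure D3:**
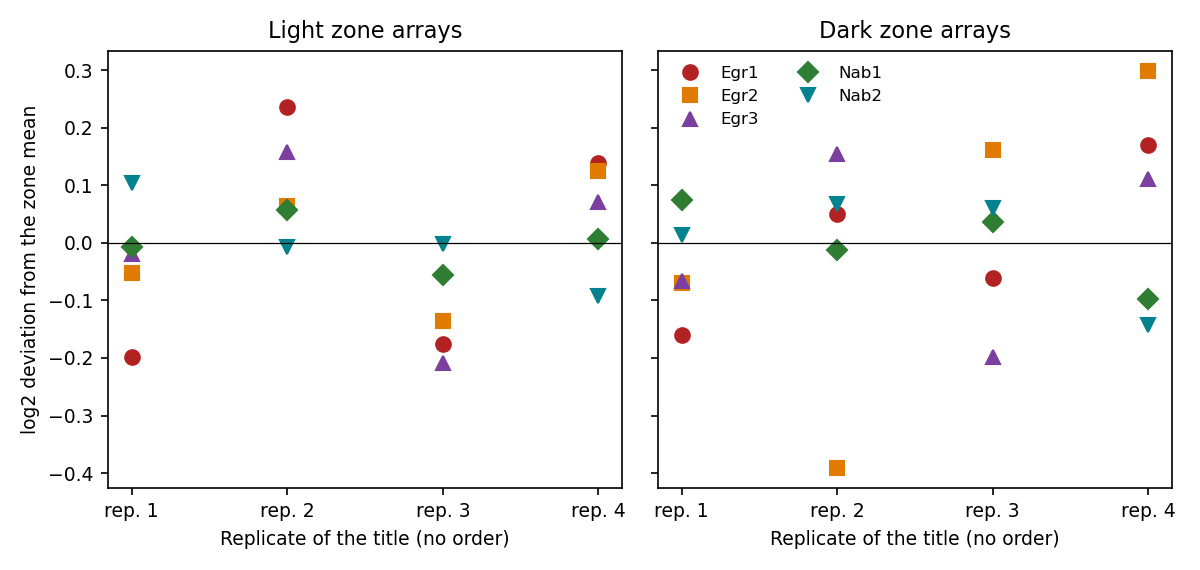
Deviation of each array from its zone mean in log2 intensity for the probe set that stands for each of the 5 genes, light zone on the left and dark zone on the right. In the light zone Egr1, Egr2, Egr3 and Nab1 are above their mean in replicates 2 and 4 and below it in replicates 1 and 3, and in the dark zone Egr2 ranges from -0.39 to 0.30.

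The genes with profiles most like a member were found by the distance between log2 profiles over the 8 arrays, each centred on its mean. Nearest to Egr1 were the activation marker Cd69 (distance 0.32), the phospholipid phosphatase gene Plpp1 (0.40) and Myc (0.41). Nearest to Egr2 were the zinc finger gene Hivep3 (0.35), the cytokine signalling inhibitor Socs3 (0.64) and Cd83 (0.64), the last of which was part of the gate. Egr3 had no close neighbour: the cyclin gene Ccnd2 was at 1.48 and the chemokine receptor gene Ccr6 at 1.74, followed by the cytokine receptor gene Lifr at 2.46. Dad1, Gm32031 and Ly86 were nearest to Nab1, at 0.11 each, and Stat6 (0.13), Commd3 (0.14) and Dexi (0.15) to Nab2. Distances are smaller for genes that change little, since most such genes lie close to each other. The zone difference is part of the distance. The lack of a close neighbour for Egr3 (-4.67, with Ccnd2 at -3.74) therefore follows largely from its rank of 1 and is not a separate result.

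Related factors that bind GC-rich sites did not move with the EGR genes as a group. Egr4, the fourth EGR gene, stayed below the filter, at 22.2 to 28.7 in light zone and 21.5 to 26.2 in dark zone arrays, with overlap (difference -0.06), and Wt1 was also too dim. Of 4 relatives tested, the Kruppel-like repressor gene Klf10 was higher in the light zone (-1.10, SE 0.13, limma adjusted p = 4.25e-05) and the Sp family gene Sp3 in the dark zone (0.43, SE 0.08, limma adjusted p = 0.00105). Sp1 (0.15) and Klf11 (-0.05) did not pass.

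The kinase and transcription factor genes upstream of EGR induction differed by at most 0.73 in either direction, against at least 1.96 for the EGR genes. Of 19 listed, 14 were tested. Of these, 6 were higher in the light zone (42.9%, against 24.8% of all genes tested), 3 in the dark zone (21.4%, against 19.1%) and 5 did not pass. The median was -0.12 against -0.01 over all genes tested. Elk3, an ETS partner of serum response factor, was at -0.73 (SE 0.10), but none of its 3 dimmer probe sets passed (-0.07 to 0.01). Srf, which encodes serum response factor, was at -0.38 (SE 0.08, limma adjusted p = 0.00182), and Map2k1, the MAP kinase kinase MEK1, was at -0.38 (SE 0.07).

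Some upstream genes went the other way. Nfatc3, a calcium-regulated factor, rose in the dark zone by 0.45 (SE 0.07, limma adjusted p = 0.000161), and Rasgrp1, an activator of RAS, rose by 0.36 (SE 0.07). Of 3 dimmer Rasgrp1 probe sets, 2 that lay below the filter passed in the same direction (0.35 and 0.52) and 1 did not pass (0.22). Elk4, another partner of serum response factor, was at 0.21, a call lost without any one of 6 of the 8 arrays (limma adjusted p up to 0.114).

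Genes of the NuRD complex, which works with NAB proteins, were called about as often as genes in general. All 13 subunit genes were tested, 3 were higher in the light zone (23.1%), 2 in the dark zone (15.4%) and 8 did not pass (61.5%, against 56.1% of all genes tested), with a median of -0.06. Chd4, the helicase subunit that NAB2 contacts, was at -0.07 (SE 0.06, limma adjusted p = 0.391), and of its 2 dimmer probe sets 1 was higher in the light zone (-0.33) and 1 did not pass (0.13). Rbbp4, a histone-binding subunit, did not pass by its brightest probe set (0.08), but all 3 of its dimmer probe sets were higher in the dark zone (0.36, 1.16 and 1.54). Mbd2, a reader of methylated DNA, rose in the dark zone by 0.94 (SE 0.06, limma adjusted p = 1.31e-07), and its dimmer probe set gave 1.97. Mta3, a subunit known from germinal centre B cells, rose by 0.26 (SE 0.07), while its 2 dimmer probe sets did not pass. Gatad2a (-0.24) and Mbd3 (-0.19) were higher in the light zone. Of 4 dimmer Gatad2a probe sets, 2 passed with the same sign (-0.23 and -0.32), 1 with the opposite sign (0.27) and 1 did not pass (0.14). The count of 3 fell to 0 on leaving out any one of LZ1, LZ3 and DZ2 (light or dark zone and replicate number), and to 1 on leaving out DZ1.

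Genes for proteins that bind EGR factors had small differences. All 6 were tested, and 3 rose in the dark zone, against 19.1% of all genes tested. None rose in the light zone (0 in limma at an unadjusted p under 0.05 as well), against 24.8% called of all genes tested. The median was 0.13. The acetyltransferase gene Kat2b rose by 0.25 (SE 0.06, limma adjusted p = 0.00378), the coactivator gene Crebbp by 0.16 and the helicase gene Ddx20 by 0.15. The 2 dimmer probe sets of Kat2b did not pass (0.04 and 0.31). Of 3 dimmer Crebbp probe sets, 1 was higher in the dark zone (0.26, limma adjusted p = 0.0121) and 2 did not pass (0.11 and 0.12). The count of 3 became 1 with the replicate block, and also when any one of light zone replicates 2 to 4 or dark zone replicates 1 and 2 was left out.

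Genes described as EGR targets in other lymphocyte work were more often higher in the light zone than in the dark zone, and 4 of them differed by about 2-fold or more. Of 20 listed, 12 were tested. Of these, 7 were higher in the light zone (58.3%, against 24.8% of all genes tested), 2 in the dark zone (16.7%, against 19.1%) and 3 did not pass. The median was -0.21, against -0.01 over all genes tested. The cytokine signalling inhibitor Socs3 was at -2.55 (SE 0.14, limma adjusted p = 4.46e-08), the transcriptional repressor Bhlhe40 at -2.19 (SE 0.15), Ndrg1 at -1.07 (SE 0.09, with a dimmer probe set at -0.19 that did not pass) and the adhesion molecule Icam1 at -0.98 (SE 0.08). Dgkz, a diacylglycerol kinase that dampens RAS signalling, rose in the dark zone by 0.22 and Cd44 by 0.24. The dimmer Dgkz probe set (-0.02) did not pass. Of 3 dimmer Cd44 probe sets, 1 passed in the same direction (0.32) and 2 did not pass (-0.04 and 0.10). Tnf (-0.49), Tgfb1 (-0.23) and Id3 (-0.19) were higher in the light zone by smaller amounts. The Tgfb1 call was lost without any one of 6 arrays (limma adjusted p up to 0.102), and its dimmer probe set (0.03) did not pass. The cell cycle inhibitor gene Cdkn1a (0.03), the ubiquitin ligase gene Cblb (-0.03) and the lipid kinase gene Dgka (0.08) did not pass. Below the filter were 7 targets, among them Rnf128, Fasl, Lag3 and Tnfrsf9.

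**Figure D4:**
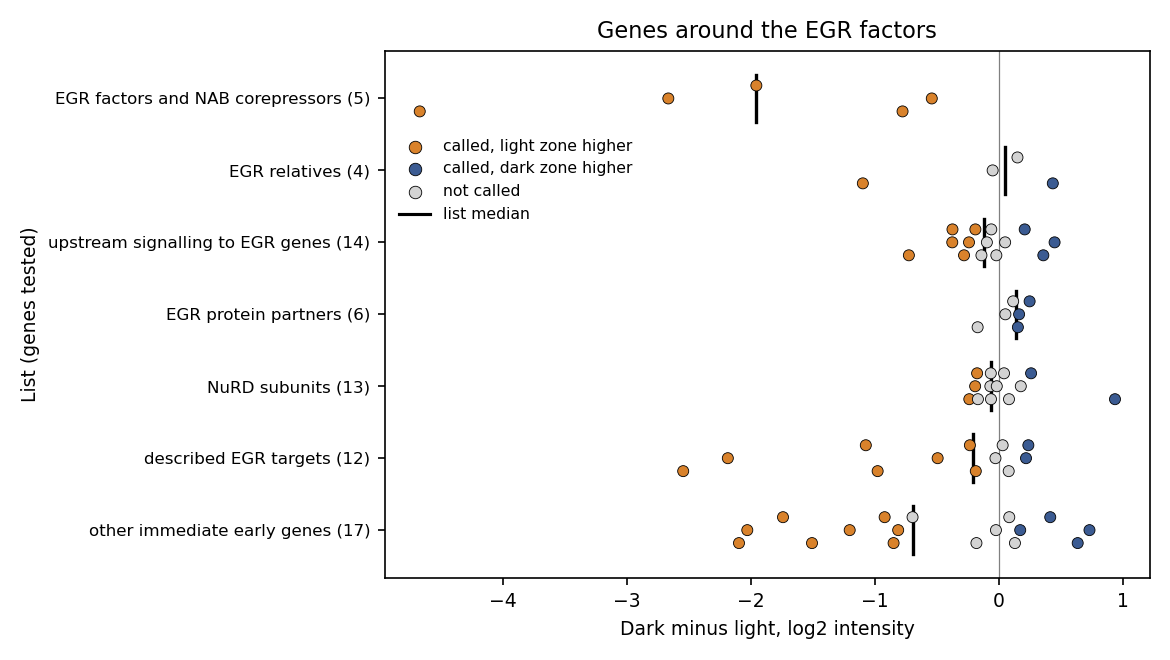
Dark minus light difference in log2 intensity for each tested gene of the members and of 6 lists, coloured by its call in limma, with a bar at the list median. The EGR factors and NAB corepressors, all of them orange, reach further to the left than any other list, while NuRD subunits and EGR protein partners cluster near 0.

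Other immediate early genes did not all share the direction of the EGR genes. Of 17 tested, 8 were higher in the light zone (47.1%, against 24.8% of all genes tested), 4 in the dark zone (23.5%, against 19.1%) and 5 did not pass. The median was -0.70, against -0.01 over all genes tested. The growth regulator Myc (-2.10, SE 0.13), Cd69 (-2.03, SE 0.10), Ier2 (-1.74, SE 0.10) and the nuclear receptor gene Nr4a1 (-1.51, SE 0.10) led the light zone side, with differences of the size of Egr1. Btg2 (0.73, SE 0.10), an inhibitor of proliferation, rose in the dark zone, as did Klf6 (0.64, SE 0.12) and the MAP kinase phosphatase gene Dusp5 (0.41, SE 0.08). The dimmer Btg2 probe set (0.11) did not pass. Of 4 dimmer Klf6 probe sets, 3 passed in the same direction (0.57, 0.74 and 0.84) and 1 did not pass (0.14). Nr4a3 was at 0.17, a call lost without any one of 6 arrays (limma adjusted p up to 0.114), and a dimmer Nr4a3 probe set passed with the opposite sign. Fos varied more between arrays of 1 zone than between zones (-0.70, SE 0.40, limma adjusted p = 0.186). It passed only with the replicate number as a block (limma adjusted p = 0.00994). Fosb, Jun and Atf3 were below the filter.

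Genes known to respond to tissue dissociation were read beside these results, since EGR genes can respond as well. Of 14 listed, 10 were tested, and 3 of them (Ier2, Junb at -1.20 and Zfp36 at -0.85), all also on the immediate early list, were higher in the light zone. No heat shock gene passed in the main limma fit by its brightest probe set, with Hspa8 at -0.02 and Hspa1b at -0.35. Dnajb1 was at 0.26, the 1 of these genes with an unadjusted p under 0.05. With the replicate number as a block, Hspa1b (limma adjusted p = 0.0128) and Fos (0.00994) passed as higher in the light zone. Dnajb1 (0.00515) then passed as higher in the dark zone. The 3 dimmer Hspa8 probe sets were at -0.18, -0.24 and -0.85, and the last was higher in the light zone (limma adjusted p = 0.0364). The summed intensity of the list overlapped between zones, at 17960 to 19370 in light zone and 17660 to 19630 in dark zone arrays. Most of this sum came from Hspa8 (10680 and 10500 in light and dark zone arrays) and Hsp90aa1 (5116 and 5480). It therefore cannot show a change of dimmer genes such as Ier2, Junb and Zfp36. The part of dissociation in the EGR differences was not tested.

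Markers of other cells that could carry EGR transcripts were read in the same way. Of 16 T cell markers 7 were tested and 1 passed, the adaptor gene Lat (-0.52, SE 0.07). This was 14.3% higher in the light zone, against 24.8% of all genes tested. Cd3d, Cd3g, Cd28 and Il21 were below the filter. Cd3e was at 38.4 in light zone arrays and 37.0 in dark zone arrays. The brightest of the list were Tox2 (412.2 and 467.6) and Zap70 (130.2 and 146), and neither passed in the main fit. With the replicate number as a block, Tox2 passed (limma adjusted p = 0.0484). The summed intensity of the T cell list was 891.3 to 974.3 in light zone and 888 to 1041 in dark zone arrays, so the ranges overlapped.

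Of 13 myeloid markers with a probe set, 4 were tested. Lyz2 (2.98, with mean intensities of 49.2 and 388.2 in light and dark zone arrays) and Csf1r (0.40) were higher in the dark zone. Cd68 (-0.40) was higher in the light zone, and Adgre1 (0.07) did not pass. Lyz2 scattered widely between dark zone arrays (SD 1.135 on the log2 scale). The summed intensity was 317 to 372.1 in light zone and 409 to 1146 in dark zone arrays. Of 8 stromal and follicular dendritic markers with a probe set, 3 were tested. None passed in the main limma fit by its brightest probe set (1 had an unadjusted p under 0.05, Clu at -0.42). With the replicate number as a block, Clu passed (limma adjusted p = 0.0448). Of 3 dimmer Clu probe sets, 1 that lay below the filter was higher in the light zone (-1.21, limma adjusted p = 0.00832), and the others were at -0.26 and -1.06. Among plasma cell genes, the regulators Irf4 (-2.03) and Prdm1 (-1.37) were higher in the light zone, while Jchain was at 0.15, a call lost without any one array, and Xbp1 (-0.15) and Sdc1 (-0.14) did not pass by their brightest probe sets. Of 3 dimmer Sdc1 probe sets 2 were higher in the light zone (-0.63 and -1.17), as was 1 of 3 for Xbp1 (-0.24). The part of these cells in the EGR and NAB differences was not tested.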

How the data were processed

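Total RNA of 8 sorted samples went to 1 Affymetrix array each after 3' IVT Express labelling, per the labels' protocols. The deposited values are intensity values on a linear scale for 45037 probe sets, made with RMA per the submitters' processing notes (version and detection calls not given in the sources used here). RMA equalises the arrays' distributions, so a change in total RNA cannot be seen, and it compresses differences of dim genes. The log2 of each value was taken with no pseudocount. By the platform annotation, 34945 probe sets carry 1 symbol, 932 several and 9160 are unnamed here. The probe set brightest over 8 arrays stands for a gene, which was tested if it was at or above the 50th percentile of the probe sets' means (intensity 27.8); 7646 genes were too dim. limma 3.58.1 in R 4.3.3 (lmFit, eBayes) compared 4 dark zone with 4 light zone arrays, adjusted by Benjamini-Hochberg over 10547 genes, called under 0.05. Alternatives changed the filter, probe set choice, scaling, variance model, array weights, block and arrays used. The pipeline was tested on simulated data. Negative differences mean higher in the light zone.

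Named genes are the members, the 3 nearest profiles of each, and in each list up to 4 called genes with the largest differences plus those against the majority; others are named where a sentence turns on them, chosen after their values were seen. The members and lists were chosen with earlier results of these data known. No control probe sets were used. The number of arrays limits the precision. The plots use matplotlib 3.10.9 (Python 3.11.15).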

Additional observations from a re-analysis of the deposited data

How the results depend on the processing

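The differences of Egr1, Egr2, Egr3, Nab1 and Nab2 kept their direction and passed under every alternative in which they were tested (Nab2 is dropped by the filter at the 75th percentile). Except where probe sets were averaged, each was read from the gene's brightest probe set. Taken alone, the dimmer Egr3 probe set (0.01) and 1 dimmer Nab1 probe set (-0.21) did not pass. Without any one array they ranged from -2.02 to -1.88, -2.77 to -2.54, -4.74 to -4.61, -0.57 to -0.51 and -0.81 to -0.73. The largest change came from averaging probe sets, which gave -2.33 for Egr3 and reversed the pair of Egr2 and Egr3, from 2.00 to -0.29. The pair of Nab1 and Nab2 ranged from 0.20 to 0.27 without any one array. Of the members' probe sets, 7 passed with any one array left out, an alternative added after the data were seen.

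Replicate numbers are shared by the titles. Same-numbered arrays deviated together at correlations of 0.0596 to 0.243, and 7 of 8 arrays correlated best with their own number. The samples may therefore be paired by number, which the main fit did not take into account. With the replicate block, the member differences were -1.96, -2.67, -4.67, -0.54 and -0.78, 7 of the members' probe sets passed, and the count of EGR protein partners higher in the dark zone fell from 3 to 1. Of the other listed genes, Fos (limma adjusted p = 0.00994), Dnajb1 (0.00515), Hspa1b (0.0128), Clu (0.0448) and Tox2 (0.0484) passed with the block and not without it, while Jchain (0.0703) and Nr4a3 (0.0512) no longer passed. The count of partners was also 1 with no filter and 1 to 2 without any one array, and its light zone count was 0 to 1. Averaging probe sets left 1 NuRD gene higher in the light zone and 1 EGR target higher in the dark zone. Without any one array the NuRD count was 0 to 3 and that of EGR relatives higher in the dark zone 1 to 2. Testing every probe set gave 4244 calls for the light zone and 4215 for the dark zone, against 2614 and 2015 genes, since more features were tested. Centring arrays on their medians moved the median of all genes from -0.01 to -0.03. Differences near the filter are limited by dim signal.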
